A study of Homo sapiens with 9 samples.

Results

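Immune checkpoint genes code for receptors, ligands and enzymes that regulate T cells and macrophages, in most cases by restraining them. The 9 described here are CTLA4, CD274, PDCD1LG2, CD276, ICOSLG, CD47, PVR, LGALS9 and IDO1, found by symbol among the 25382 genes of the count table. The cells were 501mel, an established line from human melanoma, taken 24 h after they were lipofected with a DsiRNA, which is an RNA duplex that Dicer trims into a silencing guide. There were 3 groups of 3 biological replicates, 9 libraries in all. One group received DsiRNA 13.6 against TBX3, another received DsiRNA 13.8 against the same gene, and the control group received the DsiRNA NC1. TBX3 is a T-box transcription factor. All groups share the cell line, the transfection and the harvest time, no group lacks a transfection, and each reagent was tested in 1 line. CTLA4 was selected on its measured values, because the DsiRNAs moved it in opposite directions. Its changes are therefore given as a description with no test.

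T cells need a second signal beside antigen, and proteins of the B7 and CD28 families supply it or hold it back. CTLA-4 takes B7 ligands away from CD28, PD-L1 and PD-L2 engage the inhibitory receptor PD-1, and CD47 tells macrophages through SIRPA not to engulf a cell. Melanoma is the tumour in which antibodies against CTLA-4 and PD-1 first became standard treatment, and PD-L1 on tumour cells is induced by interferon-gamma through JAK kinases, STAT factors and IRF1.

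The targeted gene was lower in both knockdown groups. TBX3 stood at 46.4, 41.0 and 39.4 CPM (a gene's reads per 1000000 reads of its library, scaled by edgeR's TMM factors) with 13.6, at 36.1, 33.7 and 36.2 CPM with 13.8 and at 88.6, 83.8 and 84.0 CPM in control. All 6 knockdown libraries lay below all 3 controls, with log2 fold changes of −1.02 ± 0.07 for 13.6 and −1.27 ± 0.07 for 13.8 (estimate ± SE). The libraries held 38105026 to 52272147 counted reads. In bulk RNA, fewer cells that express a gene and less RNA per cell cannot be told apart.

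Of the 9 genes, 6 had enough reads to be tested, and PDCD1LG2, ICOSLG and IDO1 did not. A gene was called when its adjusted p was under 0.05 in edgeR's quasi-likelihood test, after Benjamini-Hochberg (BH) adjustment over 14731 genes, and "rose" and "fell" mean such a call. Besides CTLA4, 5 were tested. With 13.6 against control, 3 of these 5 rose (CD274, CD276 and PVR), 0 fell and 2 did not pass. Over all tested genes 49.9% were called in this comparison, 24.9% higher and 25.0% lower. With 13.8 against control, 2 rose (CD276 and CD47) and 1 fell (PVR), where 55.5% of all tested genes were called, 27.5% higher and 27.9% lower. Between 13.6 and 13.8, 2 were higher with 13.6 (CD274 and PVR) and 1 was lower (LGALS9), against a background of 61.1%, with 30.9% higher and 30.2% lower. With so many genes called and 5 tested, these shares are near the background and are not a result about the group. What follows concerns the single genes.

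**Figure D1:**
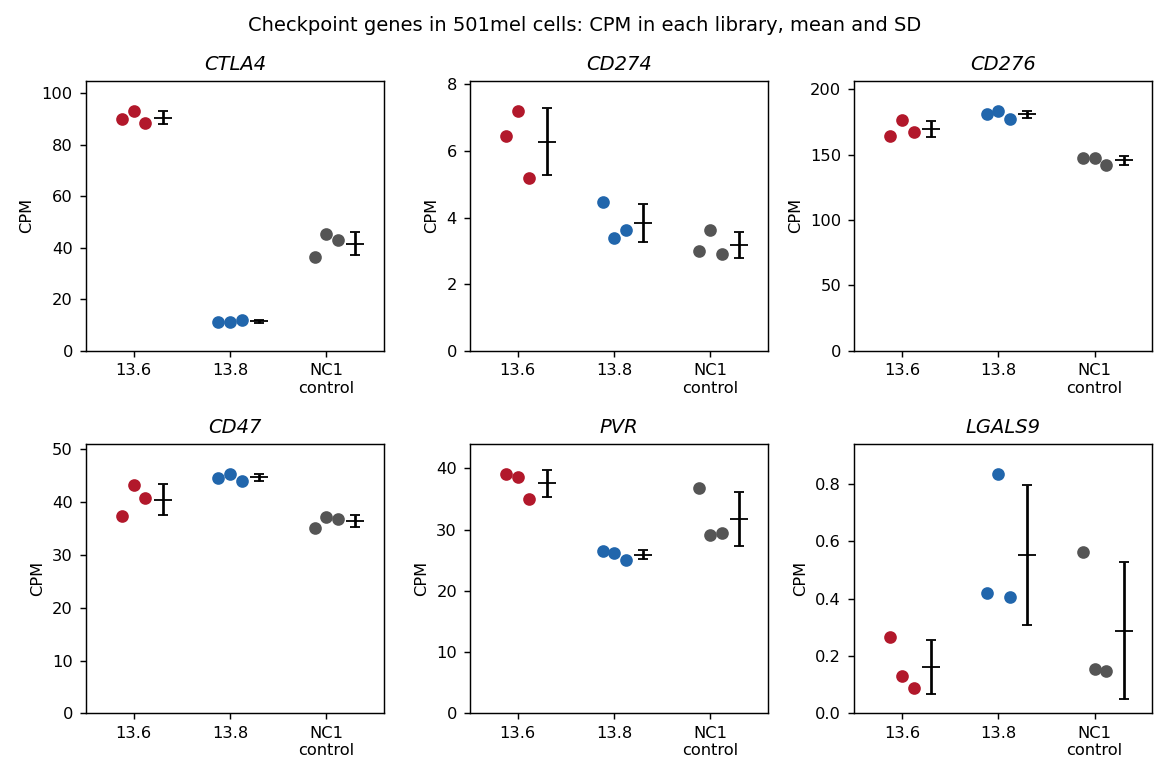
CPM (vertical axes, each from 0) of the 6 tested checkpoint genes in each library, with DsiRNA 13.6 on the left, 13.8 in the middle and NC1 control on the right; dots are libraries, and the dash with its bar is the mean ± SD of 3. CTLA4 averaged 90.6 CPM with 13.6, 11.4 CPM with 13.8 and 41.7 CPM in control, and every knockdown library of CD276 and CD47 lies above every control.

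CTLA4 is an inhibitory receptor best known from activated and regulatory T cells. It had 3722, 4323 and 4027 reads with 13.6, 526, 588 and 595 reads with 13.8, and 1692, 1738 and 1766 reads in control. On the CPM scale it averaged 90.6 ± 2.3 with 13.6, 11.4 ± 0.59 with 13.8 and 41.7 ± 4.5 in control (SD, n = 3). Every 13.6 library was above every control and every 13.8 library below every control, with little spread inside a group. Relative to control the level was 2.18-fold with 13.6 (log2 fold change 1.12 ± 0.08) and 0.274-fold with 13.8 (−1.87 ± 0.08). Between the DsiRNAs the gap was 7.94-fold (2.99 ± 0.09). These values chose the gene, so its opposite directions are not evidence for anything else here. TBX3 itself was lower with both.

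**Figure D2:**
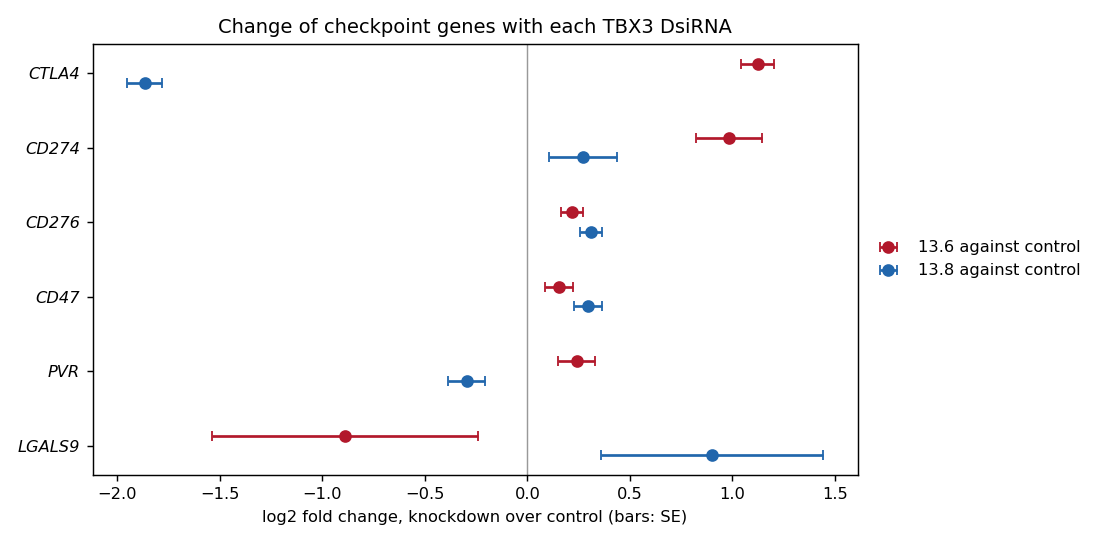
Log2 fold change of each tested checkpoint gene with DsiRNA 13.6 and with 13.8 over control (horizontal axis; dots are edgeR estimates, bars are SE; zero is the grey line). CTLA4 stands at 1.12 with 13.6 and −1.87 with 13.8, and PVR and LGALS9 also lie on opposite sides. LGALS9 has the widest bars, and neither of its values passed.

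Leukocyte transcripts were nearly absent. The 17 T-cell and leukocyte markers found in the table, among them PTPRC, CD3D, CD3E, CD3G, CD4, CD8A, FOXP3, CD14 and ITGAM, summed to between 43 and 53 reads per library with 13.6, 65 to 74 with 13.8 and 52 to 63 in control. In CPM, which allows for depth, the sums were 0.95 to 1.28 with 13.6, 1.32 to 1.48 with 13.8 and 1.35 to 1.54 in control. The 13.8 and control ranges then overlapped. CD3D, a T-cell receptor subunit, had at most 1 read in any library, and CD8A at most 4. Of the 3 markers with enough reads to test, 0 changed with 13.6 in edgeR's quasi-likelihood test. ITGAM, an integrin of myeloid cells, passed the low-count filter only through the control libraries, where it was highest. It was lower with 13.8 (log2 fold change −1.27, adjusted p = 0.037, edgeR, BH), a comparison not independent of that filter. That call was lost without any 1 of 5 libraries, which are all 3 controls and 13.8 replicates 2 and 3, and also in DESeq2, with a replicate block and with no filter on low counts. The 9 melanoma and melanocyte markers summed to 571803 to 682864 reads per library with 13.6, 856956 to 928254 with 13.8 and 562983 to 629365 in control. These sums do not show a shared direction. TYRP1 alone had 1172161 reads in all with 13.8 and 451729 in control. With 13.8, 5 of the 9 rose and 3 fell, beside 55.5% of all tested genes called. The 3 that fell were MITF (−0.97), SOX10 (−0.35) and MLANA (−0.27). With 13.6, 4 rose and 3 fell, beside 49.9% called.

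The next genes to CTLA4 on its chromosome in the RefSeq order are its relatives CD28 and ICOS, both costimulatory receptors of T cells. ICOS had 854 reads with 13.6, 852 with 13.8 and 496 in control. It rose with both, by 0.69 ± 0.12 on the log2 scale with 13.6 (adjusted p = 0.00048, edgeR, BH) and by 0.52 ± 0.12 with 13.8 (adjusted p = 0.0031, edgeR, BH). ICOS was thus higher with 13.8, where CTLA4 was lower. CD28 had 33 reads with 13.6, 68 with 13.8 and 48 in control, and did not pass in either comparison. The ligands of CTLA-4 were close to absent: CD80 had 6, 5 and 3 reads in all with 13.6, 13.8 and NC1, and CD86 had 4, 10 and 4.

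Among the 5 genes whose levels ran most like those of CTLA4 were NUAK1, ACSL1, PIGA and DCTN6. Likeness was the root mean square difference of log2 CPM, each gene centred on its own mean, over 9 libraries and among 11672 genes with at least 1 CPM on average. It was 0.21 for NUAK1, an AMPK-related kinase, and 0.30 for ACSL1, which activates long-chain fatty acids. PIGA, an enzyme of GPI anchor synthesis, differed by 0.34, and DCTN6, a dynactin subunit, by 0.35. NUAK1 averaged 12.8 ± 0.99 CPM with 13.6, 1.74 ± 0.15 CPM with 13.8 and 5.79 ± 1.0 CPM in control (SD, n = 3). ACSL1 averaged 353 ± 17 CPM with 13.6, 68.9 ± 4.1 CPM with 13.8 and 233 ± 13 CPM in control. These 4 were highest with 13.6 and lowest with 13.8, which the likeness to CTLA4 fixes.

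**Figure D3:**
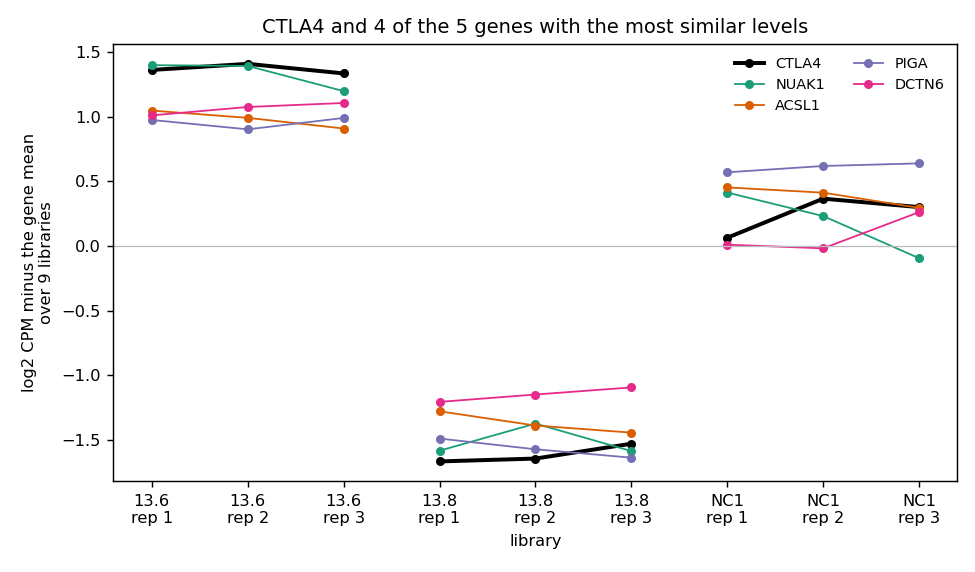
Log2 CPM minus the gene's mean over 9 libraries (vertical axis) for CTLA4 (black) and 4 of the 5 genes nearest to it, in each library (horizontal axis, 13.6, then 13.8, then NC1); lines join replicates of a group and stand for no order. All 5 genes are highest in the 13.6 libraries and lowest in the 13.8 libraries, as the choice by likeness requires.

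The promoter of CTLA4 is shown because it differed most between groups among the 6 tested genes, and that of CD274 because the gene is known to respond to interferon. Both are RefSeq promoter sequences of build GRCh38.p14, on the + strand, 250 bases before the first transcribed base and 50 from it on, and the counts rest on hg19. Capitals mark matches to the interferon regulatory factor motif GAAANNGAA, on either strand, and to the STAT motif TTCNNNGAA, which reads the same on both strands.
CTLA4 (chr2:203867521-203867820): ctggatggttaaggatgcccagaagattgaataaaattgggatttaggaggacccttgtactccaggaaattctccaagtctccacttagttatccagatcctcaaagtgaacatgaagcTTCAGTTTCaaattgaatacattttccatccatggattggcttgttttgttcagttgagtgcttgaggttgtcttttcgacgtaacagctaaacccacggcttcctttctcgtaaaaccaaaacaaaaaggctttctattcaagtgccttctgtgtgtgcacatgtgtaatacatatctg
CD274 (chr9:5450292-5450591): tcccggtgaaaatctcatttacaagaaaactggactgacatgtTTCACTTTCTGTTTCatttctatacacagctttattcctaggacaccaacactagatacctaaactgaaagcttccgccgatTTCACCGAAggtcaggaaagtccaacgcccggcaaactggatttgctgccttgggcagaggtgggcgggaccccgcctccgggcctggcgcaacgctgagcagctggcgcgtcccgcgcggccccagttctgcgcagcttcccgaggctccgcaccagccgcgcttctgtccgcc
CTLA4 held 1 IRF match, and CD274 held 2 that overlap each other, at positions −207 and −201 from the first transcribed base, and 1 STAT match at −125. LGALS9 held 1 IRF match that starts at −8. The IRF letters are in 8.11% of all 35116 promoters and the STAT letters in 7.66%. A T-box motif, AGGTGTGA on either strand, is in 0.98% of promoters and in no promoter of the 7 checkpoint genes listed there. A match is only a run of letters, and its absence says nothing of binding.

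CD274 codes for PD-L1. Its reads were few but well above the floor, with 266, 334 and 236 with 13.6, 214, 179 and 179 with 13.8, and 138, 140 and 119 in control. In CPM the values were 6.45, 7.20 and 5.19 with 13.6, 4.47, 3.40 and 3.64 with 13.8, and 2.99, 3.64 and 2.91 in control. All 13.6 libraries were above all other libraries, while those of 13.8 and control overlapped. CD274 rose with 13.6 by 0.98 ± 0.16 on the log2 scale (adjusted p = 0.00022, edgeR's quasi-likelihood test, BH). With 13.8 the log2 fold change was 0.27 ± 0.17 and did not pass (adjusted p = 0.18, edgeR, BH). CD274 was also higher in 13.6 than in 13.8 libraries, by 0.71 ± 0.16 (adjusted p = 0.0015, edgeR, BH). Genes of most similar course were ANKEF1, LRP8 and MPP3, with root mean square differences of 0.11, 0.12 and 0.12. At a prior count of 0.5 in place of 2, NR1D1 took the place of MPP3.

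PDCD1LG2, the neighbour of CD274 in the RefSeq order, codes for PD-L2, the other ligand of PD-1. It had 0, 0 and 0 reads with 13.6, 9, 1 and 3 reads with 13.8 and 0, 0 and 0 reads in control. All its reads came from 13.8 libraries, most of them from the first. Taking 3 reads over the control group as the most that a count of 0 allows, the 13 reads give a ratio of 3.65 to control, and the exact 95% interval, which also takes in the error of the 13, starts at 2.57. Without 13.8 replicate 1 there are 4 reads, and these values are 1.65 and 0.82, so the difference rests on that library. They cover counting error only, and the gene was too low to be tested. PDCD1, the gene of their receptor PD-1, had 3 reads in all with 13.6, 1 with 13.8 and 1 in control.

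Genes of the interferon-gamma relay, which drives CD274 in many tumours, moved both ways. Of 14 tested, 6 rose and 5 fell with 13.6 (median log2 fold change 0.08), and 5 rose and 2 fell with 13.8 (median 0.13). Over all tested genes 49.9% were called with 13.6 and 55.5% with 13.8, and the medians were −0.01 and 0.01. IRF9, which binds DNA together with STAT proteins, rose by 1.31 ± 0.10 with 13.6 and by 1.33 ± 0.10 with 13.8. JAK2, a kinase of the interferon-gamma receptor, rose by 0.96 ± 0.11 with 13.6 and 0.47 ± 0.11 with 13.8. IRF1, which acts directly on CD274, rose with 13.6 by 0.57 ± 0.16. Without 13.6 replicate 2 that value was 0.48 and the call was lost. With 13.8 the value for IRF1 was 0.08 ± 0.17, which did not pass. STAT3 fell with 13.6 (−0.76 ± 0.07), and SOCS3, a feedback inhibitor of STAT signalling, fell with both DsiRNAs, at −0.68 ± 0.13 with 13.6 and −1.47 ± 0.14 with 13.8. PTPN2, a phosphatase that ends JAK signalling, rose by 0.56 ± 0.07 with 13.6 and 0.58 ± 0.07 with 13.8.

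Regulators of PD-L1 transcription and protein stability gave 5 higher and 2 lower of 19 tested with 13.6 (median log2 fold change 0.00), and 4 higher and 7 lower with 13.8 (median −0.08). The shares called of all tested genes were 49.9% with 13.6 and 55.5% with 13.8. Without 13.8 replicate 2, 7 in all were called with 13.8. CMTM6, which keeps PD-L1 on the cell surface, averaged 65.2 ± 4.6 CPM with 13.6, 34.0 ± 0.94 CPM with 13.8 and 70.9 ± 1.2 CPM in control. It fell with 13.8 (log2 fold change −1.06 ± 0.07), and with 13.6 its value was −0.12 ± 0.06. CMTM4, its relative with a similar role, rose with 13.6 (0.90 ± 0.10) and fell with 13.8 (−0.32 ± 0.10). The fall was lost without control replicate 2 (−0.22) and without 13.8 replicate 2 or 3 (−0.28 each). ZDHHC9, a palmitoyltransferase of PD-L1, rose by 0.78 ± 0.08 with 13.6 and 1.01 ± 0.08 with 13.8. B3GNT3, a glycosyltransferase reported to act on PD-L1, had 32 reads with 13.6, 61 with 13.8 and 9 in control. It passed the low-count filter only through the 13.8 libraries, where it was highest. B3GNT3 rose by 1.71 ± 0.54 with 13.6 and by 2.46 ± 0.50 with 13.8, the latter not independent of that filter. Leaving out control replicate 1 (1.63), control replicate 3 (1.51) or 13.6 replicate 3 (1.49) ended the call with 13.6. JUN, a transcription factor of the AP-1 family, fell, at −0.50 ± 0.07 with 13.6 and −0.43 ± 0.07 with 13.8. STUB1, a ubiquitin ligase, fell with 13.6 (−0.80 ± 0.08) and with 13.8 (−0.21 ± 0.08). The call with 13.8 was lost without control replicate 3 (−0.12) and without 13.8 replicate 1 (−0.18) or 2 (−0.23). It was also lost with a filter of 50 reads on average (−0.18) and with only the 2 compared groups fitted (−0.20).

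CD276 codes for B7-H3, a B7 protein that many tumours carry and whose receptor is not settled. Its CPM values were 164.5, 176 and 168 with 13.6, 181, 183 and 177.5 with 13.8, and 148, 147.5 and 142 in control. Both knockdown groups lay wholly above control, by a margin small beside that of CTLA4. It rose by 0.22 ± 0.05 on the log2 scale with 13.6 (adjusted p = 0.0043, edgeR's quasi-likelihood test, BH) and by 0.31 ± 0.05 with 13.8 (adjusted p = 0.00027, edgeR, BH). All 13.8 libraries were above all 13.6 libraries, but the difference of −0.09 (13.6 over 13.8) did not pass (adjusted p = 0.15, edgeR, BH). ICOSLG, the B7 ligand of ICOS, had 2, 3 and 0 reads with 13.6, 1, 3 and 1 with 13.8 and 5, 1 and 2 in control. At this depth no difference in ICOSLG was detectable: the ratio of reads per library total was 0.57 with 13.6 (exact 95% interval 0.15 to 1.99) and 0.53 with 13.8 (0.14 to 1.83), counting error only.

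Other co-signalling genes of the B7, CD28 and TNF families gave 4 higher and 2 lower of 14 tested with 13.6 (median log2 fold change 0.20), and 3 higher and 2 lower with 13.8 (median 0.25). Of all tested genes 49.9% were called with 13.6 and 55.5% with 13.8. CD70, the ligand of CD27, had 116 reads with 13.6, 23 with 13.8 and 16 in control, and rose with 13.6 by 2.75 ± 0.40. It passed the low-count filter only through the 13.6 libraries. CEACAM1, an inhibitory adhesion receptor, averaged 237 ± 25 CPM with 13.6, 105 ± 15 CPM with 13.8 and 96.3 ± 19 CPM in control, and rose with 13.6 by 1.30 ± 0.14. TNFSF4, the OX40 ligand, rose with 13.6 by 0.96 ± 0.18. TNFRSF14, the receptor that BTLA binds, fell with 13.6 (−0.90 ± 0.06), and its value with 13.8 was −0.04 ± 0.06. BTN2A2, a butyrophilin that restrains T cells, fell with both, at −0.87 ± 0.09 with 13.6 and −1.21 ± 0.09 with 13.8. TNFSF9, the 4-1BB ligand, fell with 13.8 (−0.56 ± 0.16). C10orf54, which codes for the inhibitory protein VISTA, passed the low-count filter only through the 13.8 libraries. It rose with 13.8 by 1.98 ± 0.60, to 71 reads, against 15 in control. Without control replicate 2 that value was 1.56 and the call was lost (adjusted p = 0.050, edgeR, BH, just above the threshold).

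**Figure D4:**
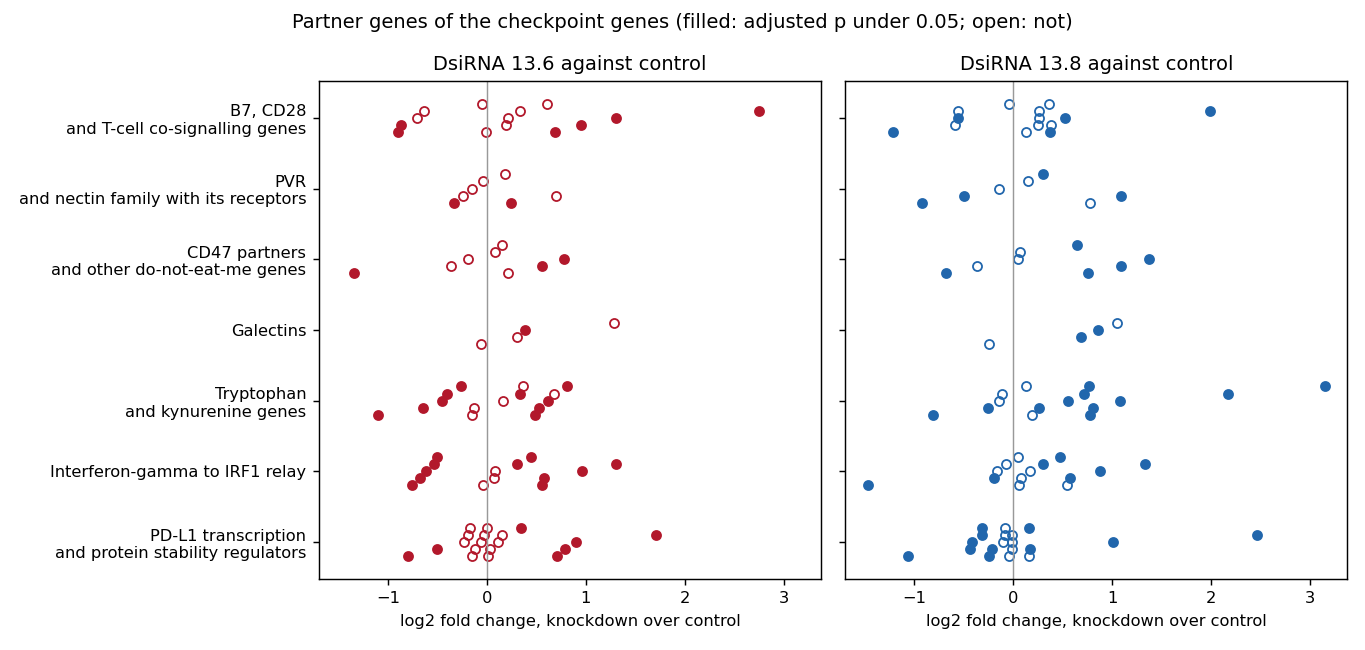
Log2 fold change over control (horizontal axis) of the tested genes in 7 lists of partners (rows), with DsiRNA 13.6 on the left and 13.8 on the right; filled dots were called at an adjusted p under 0.05 by edgeR's test and open dots were not. The dots lie on both sides of zero in most lists, and TDO2 at 3.15 with 13.8 is the farthest.

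CD47 is the ligand of SIRPA. It stood at 37.4, 43.2 and 40.8 CPM with 13.6, 44.6, 45.4 and 43.9 CPM with 13.8, and 35.0, 37.2 and 36.8 CPM in control. Each knockdown library was above each control, the 13.8 libraries by more. CD47 rose with 13.8 by 0.30 ± 0.07 on the log2 scale (adjusted p = 0.0021, edgeR's quasi-likelihood test, BH). Its value with 13.6 was 0.16 ± 0.07, which did not pass (adjusted p = 0.073, edgeR, BH; without 13.6 replicate 1 it was 0.21 and passed), and the difference between the DsiRNAs was −0.14 ± 0.07 (adjusted p = 0.082, edgeR, BH).

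Among CD47 partners and other genes that steer phagocytosis, 2 rose and 1 fell of 8 tested with 13.6 (median log2 fold change 0.12), and 4 rose and 1 fell with 13.8 (median 0.35), beside 49.9% of all tested genes called with 13.6 and 55.5% with 13.8. QPCTL, the glutaminyl cyclase that modifies CD47 so that SIRPA can bind it, fell with both. It averaged 7.62 ± 0.71 CPM with 13.6, 12.03 ± 1.7 CPM with 13.8 and 19.3 ± 1.6 CPM in control, which is −1.34 ± 0.12 and −0.68 ± 0.11 on the log2 scale for 13.6 and 13.8. SIRPA itself, the CD47 receptor of myeloid cells, averaged 235 ± 4.9 CPM with 13.6, 221 ± 19 CPM with 13.8 and 211 ± 20 CPM in control and did not pass in either comparison. B2M, the light chain of class I MHC, rose by 0.77 ± 0.09 with 13.6 and 0.76 ± 0.09 with 13.8. CALR, calreticulin, which on the surface invites engulfment, rose with 13.6 (0.56 ± 0.08). Its receptor LRP1 rose with 13.8 (1.09 ± 0.14). THBS1, a secreted ligand of CD47, had 2 reads in all with 13.6, 4 with 13.8 and 3 in control.

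PVR codes for CD155, a nectin-like adhesion protein read by the inhibitory receptors TIGIT and CD96 and by the activating receptor CD226. It stood at 39.1, 38.5 and 35.1 CPM with 13.6, 26.5, 26.2 and 25.1 CPM with 13.8, and 36.8, 29.1 and 29.4 CPM in control. The first control library was high and overlapped the 13.6 group, while every 13.8 library was below every other library. Between the DsiRNAs it was higher with 13.6 by 0.54 ± 0.09 on the log2 scale (adjusted p = 0.00019, edgeR's quasi-likelihood test, BH). Against control PVR rose with 13.6 by 0.24 ± 0.09 (adjusted p = 0.040, edgeR, BH) and fell with 13.8 (−0.30 ± 0.09, adjusted p = 0.014, edgeR, BH). Both calls against control are fragile. That with 13.6 was lost under library totals as the scale (0.20) and with only the 2 compared groups fitted (0.25). It was also lost without any 1 of 6 libraries, which are control replicates 2 and 3 (0.18 and 0.19), 13.6 replicates 1 and 2 (0.21 and 0.22) and 13.8 replicates 2 and 3 (0.24 each). That with 13.8 was lost without control replicate 1, where the value was −0.18. In RefSeq PVR overlaps CEACAM19, which had 31 reads with 13.6, 7 with 13.8 and 10 in control, few beside those of PVR.

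In the nectin family with its receptors, 1 rose and 1 fell of 7 tested with 13.6 (median log2 fold change −0.04), and 2 rose and 2 fell with 13.8 (median 0.15), beside 49.9% and 55.5% of all tested genes called with 13.6 and 13.8. With 13.6 only 1 in all was called without control replicate 2 or any 1 of the 13.6 libraries. PVRL1, which codes for nectin-1, rose with 13.8 (1.09 ± 0.15), and MLLT4, which codes for afadin, the cytoplasmic anchor of nectins, fell with 13.8 (−0.92 ± 0.10). PVRL3, which codes for nectin-3, fell with 13.6 (−0.33 ± 0.09). CADM1, an adhesion protein related to nectins, rose by 0.24 ± 0.08 with 13.6 and 0.30 ± 0.08 with 13.8. The call with 13.6 was lost under library totals (0.20) and without any 1 of 5 libraries, which are control replicates 2 and 3 (0.20 each) and 13.6 replicates 1, 2 and 3 (0.24, 0.25 and 0.24). PVRL2, which codes for nectin-2, the other ligand of TIGIT, had log2 fold changes of −0.15 ± 0.07 with 13.6 and 0.15 ± 0.07 with 13.8, and neither passed. The receptors were scarce in these cells: TIGIT had 5 reads with 13.6, 0 with 13.8 and 9 in control, and CD226 had 53, 63 and 31. CD96 had 334 reads with 13.6, 276 with 13.8 and 327 in control, and fell with 13.8 (−0.50 ± 0.18), a call lost without control replicate 1 (−0.42) or 13.8 replicate 3 (−0.37).

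LGALS9 codes for galectin-9, a secreted lectin reported to bind TIM-3. It had 11, 6 and 4 reads with 13.6, 20, 44 and 20 reads with 13.8, and 26, 6 and 6 reads in control. The first control library had more reads than the others of its group, and every 13.8 library had more than every 13.6 library. Against control neither log2 fold change passed, with −0.89 ± 0.65 for 13.6 (adjusted p = 0.27, edgeR's quasi-likelihood test, BH) and 0.90 ± 0.54 for 13.8 (adjusted p = 0.17, edgeR, BH). Without control replicate 1 the value for 13.6 was 0.07 and that for 13.8 was 1.86, which then passed. LGALS9 was tested only because the 13.8 group, where it was highest, passed the low-count filter in all its libraries. It was lower with 13.6 than with 13.8 (log2 fold change −1.79 ± 0.59, adjusted p = 0.018, edgeR, BH), a comparison not independent of that choice. That call was lost without 13.6 replicate 2 (−1.65) or 3 (−1.50) and without 13.8 replicate 2 (−1.36). LGALS9 has the near-identical copies LGALS9B, with 31 reads in all, and LGALS9C, with 0, so the share of reads that belongs to each copy is uncertain. HAVCR2, the gene of TIM-3, had 7 reads with 13.6, 5 with 13.8 and 3 in control. In a list of the other galectin genes that also holds LGALS3BP, which is not a galectin, 4 were tested. LGALS3BP alone rose with 13.6 (median of the 4 log2 fold changes 0.35), and LGALS1 and LGALS3BP rose with 13.8 (median 0.77). Over all tested genes 24.9% were higher with 13.6 and 27.5% with 13.8. Counted in either direction, 2 genes of this list were called with 13.6 without control replicate 2 or 3 or with a replicate block. With 13.8, 4 were called without control replicate 2. LGALS1, galectin-1, averaged 67.1 ± 6.1 CPM with 13.6, 98.3 ± 17 CPM with 13.8 and 54.3 ± 13 CPM in control, and rose with 13.8 (0.86 ± 0.16). LGALS3BP, a secreted glycoprotein bound by galectins, rose with both (0.39 ± 0.07 with 13.6 and 0.68 ± 0.07 with 13.8).

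IDO1 degrades tryptophan and so starves T cells of it. It had 1, 1 and 0 reads with 13.6, 1, 0 and 0 with 13.8 and 0, 1 and 0 in control, which is at or under the floor in every group. No sequence is shown for it. The same reaction is run by TDO2, which had 166 reads with 13.6, 947 with 13.8 and 90 in control. TDO2 rose with 13.8 by 3.15 ± 0.21 on the log2 scale, to 6.31 ± 0.63 CPM, against 0.70 ± 0.24 CPM in control (SD, n = 3), and with 13.6 by 0.81 ± 0.24. The call with 13.6 was lost without control replicate 2 (0.64) or 13.6 replicate 1 (0.68). Of the 15 tested genes of tryptophan use and kynurenine sensing, 5 rose and 5 fell with 13.6 (median log2 fold change 0.16), and 9 rose and 2 fell with 13.8 (median 0.55). Of all tested genes 24.9% rose and 25.0% fell with 13.6, and 27.5% rose and 27.9% fell with 13.8. KMO, which hydroxylates kynurenine, had 29 reads with 13.6, 92 with 13.8 and 17 in control. It passed the low-count filter only through the 13.8 libraries, which held 51, 18 and 23 reads. KMO rose with 13.8 by 2.17 ± 0.53, a comparison not independent of that filter. QPRT, the enzyme that turns quinolinate towards NAD, fell with 13.6 (−0.45 ± 0.10) and rose with 13.8 (1.07 ± 0.10). AHRR, the repressor of the kynurenine-sensing receptor AHR, also fell with 13.6 (−0.64 ± 0.11) and rose with 13.8 (0.55 ± 0.11). CCBL1, a kynurenine aminotransferase, fell with 13.6 (−1.10 ± 0.14), whereas AADAT, another, rose with 13.6 (0.62 ± 0.13). SLC7A5, a carrier of tryptophan into cells, fell with both, at −0.40 ± 0.08 with 13.6 and −0.81 ± 0.08 with 13.8.

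Levels can be set side by side between genes only per length, here CPM per kb of the union of GENCODE v29 exons. With 13.6 the order was CTLA4 (45.4 ± 1.2 CPM per kb, SD, n = 3), CD276 (38.1 ± 1.4), PVR (10.7 ± 0.62), CD47 (7.65 ± 0.55) and CD274 (1.70 ± 0.28). With 13.8 it was CD276 (40.6 ± 0.67), CD47 (8.45 ± 0.13), PVR (7.36 ± 0.21), CTLA4 (5.72 ± 0.30) and CD274 (1.04 ± 0.15). In control it was CD276 (32.7 ± 0.77), CTLA4 (20.9 ± 2.2), PVR (9.03 ± 1.2), CD47 (6.88 ± 0.22) and CD274 (0.86 ± 0.11). Neighbours among these 5 did not overlap in any group. LGALS9 followed with 0.05 CPM per kb with 13.6, 0.18 with 13.8 and 0.09 in control. PDCD1LG2, ICOSLG and IDO1 rested on 13 reads or fewer per group, so their order is not given.

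Certain 7-base words had been picked out in an earlier search of 3′ UTRs against these same fold changes, so their presence in the checkpoint genes is a description only. GCTCTGT is in the 3′ UTR of PDCD1LG2, PVR and ICOSLG and in 20.8% of 12470 searched genes. GATTAAC is in that of CD274 and in 5.85% of genes. AACTGTC is in no checkpoint gene of the 9 and in 11% of genes. Among the genes named for their likeness to CTLA4, it occurs 2 times in ACSL1, 3 times in PIGA and 1 time in DCTN6. NUAK1, the nearest, lacks it. GCTCTGT occurs 1 time each in NUAK1 and PIGA, and GATTAAC 1 time in ACSL1. Those genes were chosen on the same values as the words, so this too is a description only. CTLA4 holds none of these 3 words.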

How the data were processed

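RNA of 9 libraries was sequenced with a kit that keeps strand information, per the labels. Build hg19 and the tools STAR, HTSeq, cutadapt, DESeq2 and FastQC are named in the submitters' processing notes. The sources used here give no versions, annotation or strand setting of the counting. The deposited table holds raw counts per gene symbol, and the authors' second table holds log2 normalized values, which gave back the counts within 0.00203 reads and were otherwise not used. Of 25398 entries, 16 repeats were left out. Spreadsheet date names (28 entries, 0.2% of counts) stayed in the totals.

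Counts were filtered with filterByExpr (at least 10 reads), scaled by TMM and fitted in edgeR 4.0.16 (R 4.3.3) with robust quasi-likelihood, 1 mean per group over 9 libraries and 6 residual degrees of freedom. A gene could pass this filter through 1 group alone. LGALS9, C10orf54, B3GNT3 and KMO did so through 13.8, CD70 through 13.6 and ITGAM through control. P-values were two-sided, Benjamini-Hochberg adjusted over 14731 genes, and called at 0.05. They set the difference between group means against the spread between replicate libraries of this cell line, and do not cover other lines. The procedure was tested on simulated counts in which only a small set of well-counted genes was changed. Recovery of changes in genes with few reads, or with many genes changed as here, was not tested. Named genes are the 9 members, their direct partners, up to 4 called genes per list and comparison by size of change, and the nearest genes by likeness (log2 CPM, prior count 2). A few that meet this rule are not reported here. Members and lists were chosen with earlier results of these data known. Symbols are those of the table (C10orf54 is now VSIR, PVRL1 NECTIN1, MLLT4 AFDN, CCBL1 KYAT1). Exact 95% intervals and the floor of 3 reads cover counting error only. Alternatives were DESeq2 1.42.0, limma-voom (limma 3.58.1), other scalings, filters, sample sets and thresholds, a replicate block and leaving out each library.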

Additional observations from a re-analysis of the deposited data

Results flagged for a closer look

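The fold changes of CTLA4, CD274, PVR and LGALS9 differed between the DsiRNAs in the direct comparison of 13.6 with 13.8, although both reagents target TBX3. For CTLA4 the difference was 2.99 on the log2 scale, and the gene was chosen for it, so this is a description with no test. CD274 was higher with 13.6 by 0.71, with 0.98 for 13.6 and 0.27 for 13.8 against control. PVR was higher by 0.54 and lay on opposite sides of control. LGALS9 was lower with 13.6, at −1.79, on 21 reads with 13.6 and 84 with 13.8, and it passed the low-count filter only through 13.8. The last 3 passed edgeR's quasi-likelihood test at an adjusted p under 0.05, as did 61.1% of all genes tested between the DsiRNAs.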

How the results depend on the processing

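Across the 17 alternatives for a fold change, no called value of a checkpoint gene changed sign. Leaving aside CTLA4, of 251 recomputed values 232 kept their side of the threshold, 12 lost the call and 7 gained it. CTLA4 ran from 1.04 to 1.18 with 13.6 and from −1.96 to −1.81 with 13.8. CD274 with 13.6 ran from 0.87 to 1.10, CD276 from 0.18 to 0.24 with 13.6 and from 0.29 to 0.34 with 13.8, and CD47 with 13.8 from 0.27 to 0.33, with no call lost. Between 13.6 and 13.8, 5 checkpoint genes besides CTLA4 were called under library totals, against 3 by TMM; those gained were CD276 (−0.14) and CD47 (−0.19). The number of genes called overall ran from 5370 to 8010 with 13.6, from 6322 to 8803 with 13.8 and from 7143 to 9603 between the DsiRNAs. Whether replicate numbers pair the libraries is not settled. Deviations of same-numbered libraries correlated at −0.18 to 0.19, over 0.1 in 3 of 9 pairs. The best match of a library in another group had its own number in 10 of 18 cases. With a replicate block 8010 genes were called with 13.6, 8803 with 13.8 and 9581 between them, against 7357, 8169 and 8995 without it. CD47 then passed with 13.6 (0.15, adjusted p = 0.049 by edgeR). The same 5 genes were nearest to CTLA4 at a prior count of 0.5. The depth limits PDCD1LG2, ICOSLG, IDO1 and LGALS9.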
